A study of Danio rerio with 24 samples.

Results

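The genes described here are the Notch pathway genes of the zebrafish that carry a ligand, receptor or hairy-related effector symbol. They were chosen by symbol (dla, dlb, dlc, dld, dll4, symbols that begin with jag, notch, her or hes and a digit, and symbols that begin with hey), and a gene was kept where its TPM, a share of all transcripts scaled by gene length, was 1 or more in 3 or more of the 24 libraries. Of 25432 genes in the deposited tables, 38 matched by symbol and 34 were kept: 9 ligands, 4 receptors and 21 effectors. The 4 that were not kept were her1, her5, her7 and her11, which reached 1 TPM in 2 libraries at most.

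Notch signalling passes between touching cells. A Delta or Jagged ligand on one cell binds a Notch receptor on its neighbour, γ-secretase then releases the receptor's intracellular part, and that part joins Rbpj in the nucleus to switch on many her and hey genes. Effector is used here as a label by symbol for every her, hes and hey gene. Whether each of them responds to Notch was not tested. Most Her and Hey proteins are transcriptional repressors. In the developing nervous system they hold back the proneural genes and keep cells as progenitors, and in the vasculature the pathway is known for arterial fate.

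RNA from whole embryos was sequenced 4 days after fertilization, in 4 transgenic lines of 2 genotypes each, with 3 libraries in each of the 8 groups. Embryos called 3TG had the CRISPR-Q components plus a guide RNA. Those called 2TG were siblings that had the components alone. In 2 lines the system was built for knockdown, with a guide against smn1 or a guide array against both tardbp and its paralog tardbpl, and in the other 2 for transcriptional activation of lin28a or of sox9b. All embryos of both genotypes were raised at 28.5 °C and were heat treated for 1 h at 2 and at 3 days, which induces the driver QFvpr from an hsp70l promoter. The labels restrict neither the guide nor the driver to a tissue, and no library without the transgenes or without heat was used here. The labels name replicates 1 to 3 but do not say whether these were separate clutches, so a p-value measures the spread between these libraries, which may be partly technical.

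The targeted genes differed in the direction of their labels. The smn1 transcript was at 26.3 ± 1.69 TPM in 2TG and 15.4 ± 2.19 in 3TG of its line (mean ± SD, n = 3 here and throughout), tardbp at 124 ± 19.3 and 67.6 ± 17.0, tardbpl at 198 ± 18 and 105 ± 24.6, lin28a at 0.801 ± 0.462 and 4.76 ± 3.17, and sox9b at 17.9 ± 0.675 and 35.3 ± 4.13, with no overlap between the genotypes for any of them. Of all genes tested, 19.2% were without overlap in the smn1 line, 29.2% in the tardbp line, 6.56% in the lin28a line and 4.75% in the sox9b line. None of the targets passed an adjusted p of 0.05 in the limma comparison described below. The adjusted p in limma was 0.34 for smn1, 0.352 for tardbp, 0.351 for tardbpl, 0.98 for lin28a and 0.733 for sox9b. In the tardbp line all genes tested had a median difference of -0.45 on log2(TPM + 1), and the differences of tardbp and tardbpl were -0.89 and -0.93 as deposited and -0.45 and -0.49 once each library was set to the same median. The heat-induced gene hsp70l itself varied widely. In the smn1 line it was at 232, 231 and 318 TPM in 2TG against 7.37, 11.2 and 27.9 in 3TG, and in lin28a 3TG replicate 2 it reached 1140 TPM where the other 5 libraries of that line had 6.45 to 44.3. Its levels in the tardbp and sox9b lines are not given here, and whether it goes with any member across lines was not tested. The deposited values are TPM, so the depth of the libraries is unknown. In 23 libraries the TPM summed to between 983631 and 990345. In the tardbp 3TG replicate 3 library they summed to 778190, and 3 genes alone (zgc:158463, FO704772.3 and AL935186.10) took 34.3% of the full TPM scale there. The tables use 2 number formats, 6 decimals in 10 libraries and 6 significant digits in 14. Both occur in the smn1 line and in the tardbp line, where 2TG replicate 2 alone has 6 decimals.

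Among the receptors, notch3, which marks radial glia and mural cells of vessels, had the highest mean level over the 24 libraries at 24.7 TPM (range 9.6 to 42.2). It was followed by notch2 at 20.2 TPM (8.7 to 26.9), notch1a at 19 (5.43 to 50.7) and notch1b, a receptor of the arterial endothelium, at 9.96 (3.48 to 14.9). The order of neighbours was not fixed: notch3 lay above notch2 in 20 of 24 libraries, notch2 above notch1a in 16 and notch1a above notch1b in 21. TPM is scaled by length, so these levels can be set side by side between genes.

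Among the ligands the Delta genes were the more abundant. dlc, a Delta ligand of neural and vascular tissue, had the highest mean at 15.1 TPM (8.44 to 25.7), then dlb at 14.4 (5.16 to 67.6) and dla at 10.3 (5.74 to 28.5), which are Delta ligands of newly forming neurons. jag2b, a Jagged ligand, followed at 9.43 TPM (4.71 to 14.7), then dll4, the arterial Delta ligand, at 7.36 (3.3 to 11.7), dld, another neural Delta ligand, at 6.14 (3.25 to 21.7) and jag1b at 5.4 (2.78 to 7.63). jag1a and jag2a were the lowest, at 2.2 and 1.15 TPM. jag2b lay above dll4 in 24 of 24 libraries and jag1b above jag1a in 24 of 24, whereas dla and jag2b exchanged places, with dla higher in 11. The summed Delta level was 1.79 to 8.21 times the summed Jagged level, with a median of 2.73. The lowest ratio was in lin28a 3TG replicate 2 and the highest in tardbp 2TG replicate 1.

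Among the effectors hes6 stood first with a mean of 138 TPM, and its range of 27.2 to 489 TPM was the widest in TPM of the 34 genes. Hes6 differs from other members of the family: in mouse it is known to oppose Hes1 and to favour neuronal differentiation, and in zebrafish it works with the segmentation clock. Its level is not read here as a measure of Notch output. Next came her6 at 26 TPM (11.1 to 47.5) and her9 at 25.2 (14.8 to 44.2), the relatives of mammalian Hes1. hes6 lay above her6 in 22 of 24 libraries, and her6 above her9 in 15.

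The relatives of mammalian Hes5 lie in tandem arrays. In RefSeq's annotation of the assembly GRCz12tu, which is not the build of the tables and was read only for gene order, her12, her4.2, her4.1, her4.3, her4.4 and her4.5 are consecutive coding genes, as are her2, her15.1 and her15.2. The her4 copies are near-identical, as are the her15 copies, so how reads were divided between copies is uncertain. The tables carry 2 entries under the symbol her4.2, and the gene name table calls one of them (ENSDARG00000056729) her4.5. The 5 her4 entries had means of 18.2 TPM (her4.2, ENSDARG00000094426), 13.3 (her4.1), 10.4 (her4.4), 6.48 (ENSDARG00000056729) and 1.4 (her4.3). The share of her4.1 in the her4 sum ran from 9.35% to 45.1%, and both extremes were 2TG libraries of the smn1 line.

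Of the remaining effectors, hey1, a target in vessels and progenitors, had a mean of 11.1 TPM, her12 8.8, her15.1 7.78, her8.2 7.6, her2 5.72, her8a 4.3 and her13 4.09. hey2, known in zebrafish as gridlock for its part in the aorta, had a mean of 2.99 TPM, as did hes2.2, and her15.2 had 2.88. The lowest were heyl at 1.25 TPM, hes2.1 at 0.951 and her3 at 0.306. The levels of all 34 genes in each library are drawn in the plot of TPM by gene.

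**Figure D1:**
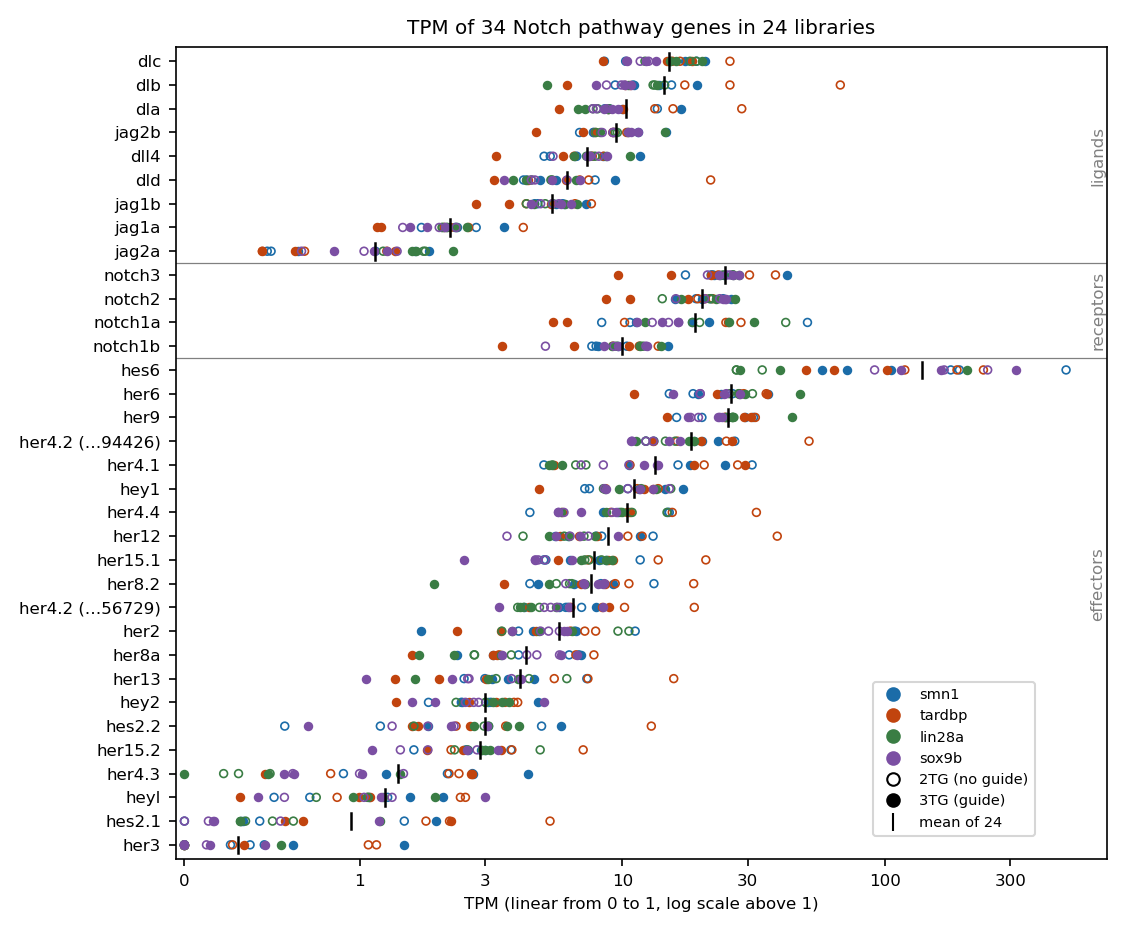
TPM of the 34 genes (rows: ligands, receptors, effectors) in 24 libraries, on an axis that is linear from 0 to 1 and logarithmic above 1; colours stand for the 4 lines, open points for 2TG, filled points for 3TG and bars for the mean of 24. hes6 reaches 489 TPM and spans the widest range in TPM, from 27.2 TPM.

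Each line was then compared alone, 3TG against 2TG, on log2(TPM + 1) with limma, p adjusted by Benjamini-Hochberg over all genes tested. No member passed an adjusted p of 0.05 in any line. The whole table gave little more: 0% of genes passed in the smn1 line, 0.0103% (2 of 19336) in the tardbp line, 0% in the lin28a line and 0% in the sox9b line. At an unadjusted p under 0.05, 2 of 32 members were found in the smn1 line (12.3% of all genes), 9 of 32 in the tardbp line (13.7%), all 9 lower (12.9%), 0 of 31 in the lin28a line (1.78%) and 1 of 32 in the sox9b line (1.22%). An exact permutation test of 3 against 3 cannot go below a two-sided p of 0.1. The differences below are therefore descriptions of these libraries, with the fitted difference on the log2(TPM + 1) scale, which understates low genes, and its standard error (SE).

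**Figure D2:**
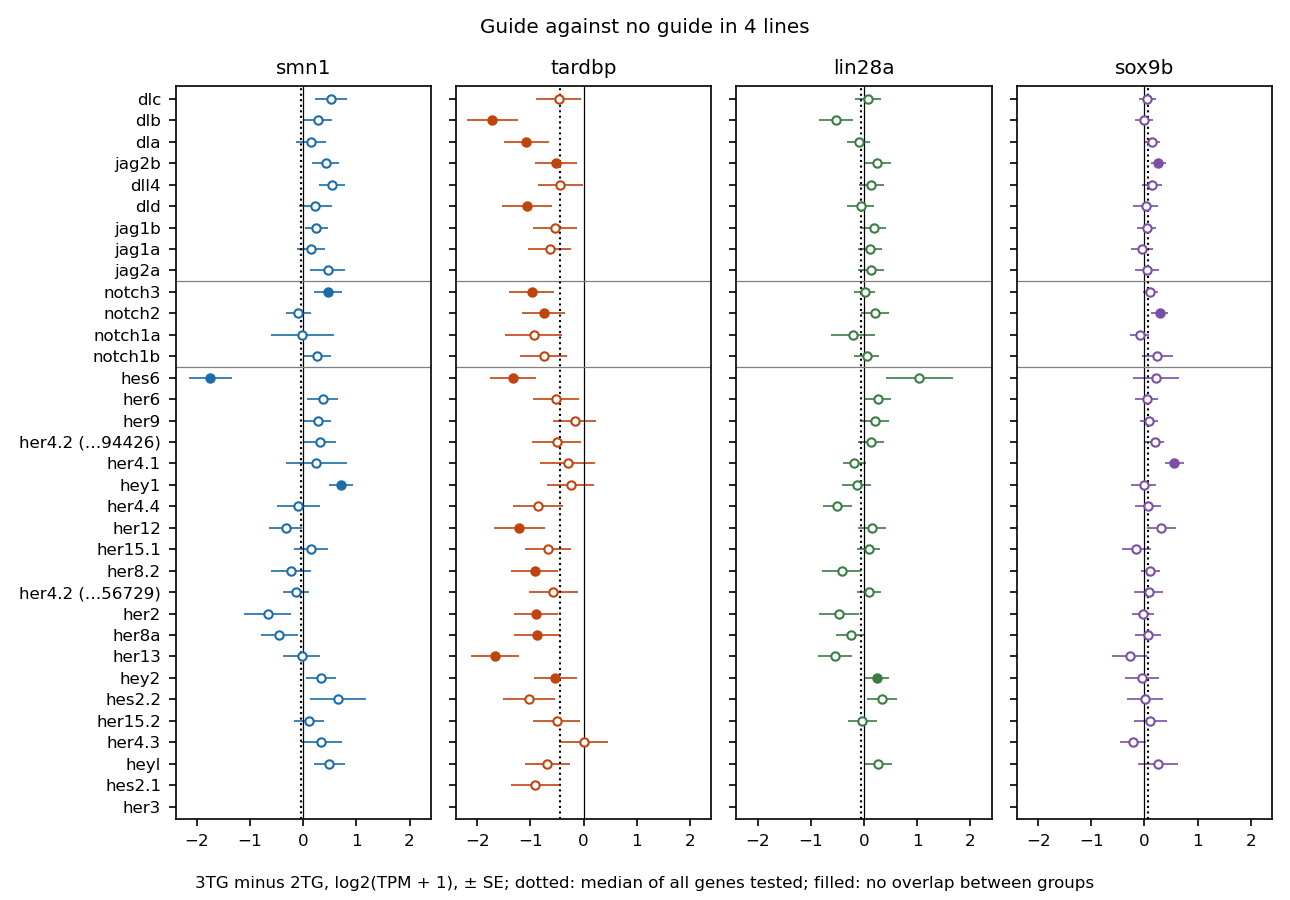
Fitted 3TG minus 2TG difference on log2(TPM + 1) with its SE for each gene tested, in 1 panel for each line; the dotted line is the median of all genes tested and filled points mark genes whose 3 3TG libraries lie all above or all below the 3 2TG libraries. The tardbp points lie to the left of 0 apart from her4.3 at 0.00, those of the lin28a line run from -0.54 to 1.04 (hes6) and those of the sox9b line from -0.28 to 0.56 (her4.1).

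In the smn1 knockdown line, all 9 ligands had higher mean log2 levels in 3TG and the effectors divided, with hes6 at 0.272 of its 2TG mean. Across the 32 members tested, 22 were higher and 10 lower, where 45.2% of all genes were higher. The median difference of the members was 0.25, beside -0.05 for all genes tested. By role the median was 0.28 for the ligands, 0.12 for the receptors and 0.15 for the effectors. Only 3 members had groups that did not overlap, which is 9.38% of members where 19.2% of all genes had no overlap. hes6 was the 1 below (11.2% of all genes), and hey1 and notch3 were above (7.96% of all genes). After centring 6 members did not overlap, 18.8% beside 19.5% of all genes.

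hes6 had 489, 192 and 178 TPM in 2TG replicates 1, 2 and 3, against 105, 57.4 and 72 in 3TG. Every 3TG library lay below every 2TG library, and the 2TG replicate 1 library stood far above its group. The means were 286 ± 175 and 78 ± 24.1 TPM, and the difference was -1.75 (SE 0.403, adjusted p = 0.288 in limma, rank 160 by p in that line). hes6 made up 47.4% to 80.1% of the effectors' summed TPM in the 2TG libraries of that line and 25.4% to 34.8% in the 3TG libraries. This share is computed from the same hes6 values and is not a separate result.

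Some other values also separated the genotypes of the smn1 line, where 19.2% of all genes did not overlap. hsp70l had a difference of -4.17 (SE 0.418, adjusted p = 0.0692 in limma, rank 2 by p), and gnat2, a gene of cone photoreceptors, was at 84.7 ± 9.11 TPM in 2TG and 191 ± 41.9 in 3TG (1.15, adjusted p = 0.256 in limma), with no overlap for either. Both come from a list of 13 marker genes of several tissues and of heat, of which 15.4% did not overlap. The summed TPM of 10 presomitic mesoderm genes, of which 4 passed the filter on low values, was 25.8, 18.7 and 19.8 in 2TG against 16.4, 10.5 and 14.1 in 3TG. Among them tbx6, a transcription factor of that tissue, had 9.91, 6.5 and 5.31 TPM in 2TG against 2.29, 2.22 and 2.85 in 3TG (-1.22, SE 0.26, adjusted p = 0.256 in limma). Both the sum and tbx6, which is part of it, were lower in every 3TG library. Of the 10 genes 6 had a median under 1 TPM, so the sum rests mostly on the few others and is no measure of that tissue. Of the 4 presomitic genes tested, tbx6 was the only 1 without overlap (25%, where 11.2% of all genes lay below). The part of heat response, stage or tissue makeup in the hes6 values was not tested.

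hey1 had 7.2, 7.5 and 10.5 TPM in 2TG against 17, 14.6 and 11.6 in 3TG. The difference was 0.71 (SE 0.232, adjusted p = 0.351 in limma), with no overlap. All 3 hey genes, which form a small subfamily of Notch targets, were on the higher side, with a median of 0.49.

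The ligand of smallest p, dll4, had 5.32, 5.04 and 6.71 TPM in 2TG against 11.7, 6.59 and 8.42 in 3TG, a difference of 0.54 (SE 0.248, adjusted p = 0.413 in limma). The 3TG library at 6.59 lay below the highest 2TG library, so the groups overlapped. dlc had 8.55, 10.3 and 19.2 TPM in 2TG against 20.6, 17.4 and 15.2 in 3TG (0.52, SE 0.299, adjusted p = 0.477 in limma). Here one 2TG library reached the middle of the 3TG group. For the receptor notch3 the 2TG libraries had 17.4, 22.1 and 21.8 TPM and the 3TG libraries 42.2, 24.4 and 22.4 (0.47, SE 0.268, adjusted p = 0.475 in limma). The groups did not overlap, but 3TG replicate 3 lay just above the highest 2TG library, and 3TG replicate 1 stood far above the rest. notch1b had 7.66, 7.95 and 10.4 TPM in 2TG against 14.9, 8.08 and 9.61 in 3TG (0.26, SE 0.261, adjusted p = 0.662 in limma), with overlap.

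The number format of the deposited values divided this line, with 6 decimals in 3TG replicate 1 and in both of the first 2TG replicates. Within the 6-decimal libraries 30 of 32 members were higher in 3TG, with a median difference of 0.59 (0.03 over all genes tested). Within the libraries with 6 significant digits 8 were higher and 24 lower, with a median of -0.28 (-0.13 over all genes tested). Most members thus had opposite signs in the 2 formats. Of the 32 members 10 had the same sign in both: dll4, her2, her4.1, her4.3, her6, hes6, hey1, heyl, jag2b and notch3. hes6 was lower by a like amount in both, at -1.54 and -1.46. hey1 was at 1.11 and 0.28, dll4 at 1.04 and 0.13, and notch3 at 1.07 and 0.10. dlc was at 1.06 and -0.23, and notch1a, whose 2TG replicate 3 library held the maximum of the series at 50.7 TPM, was at 0.90 and -1.64. Each of these within-format values sets 1 library against 2, so no test was made. With the format as a term in the limma fit of the 6 libraries, hes6 was at -1.50 (SE 0.359, adjusted p = 0.373), hey1 at 0.70 (adjusted p = 0.423) and dll4 at 0.58 (adjusted p = 0.46), and no member was called. In that fit the median was 0.28 for the ligands, 0.14 for the receptors and 0.01 for the effectors. What the formats stand for is not given in the labels.

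**Figure D3:**
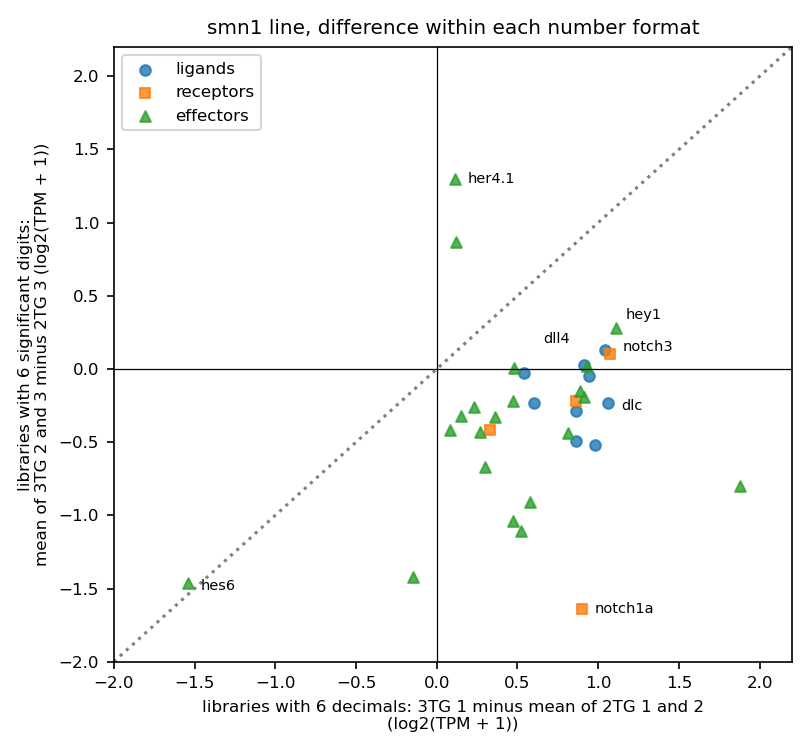
Difference between 3TG and 2TG of the smn1 line on log2(TPM + 1) for all 34 members, within the libraries written with 6 decimals (horizontal axis) and within those with 6 significant digits (vertical axis), with marker shapes for ligands, receptors and effectors. The low genes hes2.1 and her3 are drawn too, although only the other 32 were tested in that line. hes6 lies apart at -1.54 and -1.46, and most other genes lie to the right of 0 and below 0.

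Marker lists of other cell types were also compared between these libraries. The summed TPM of 12 neural progenitor and radial glia genes was 745, 649 and 963 in 2TG against 1430, 896 and 666 in 3TG of the smn1 line. Of the 12, 11 were on the higher side. The sum of 11 endothelial and arterial genes was 74.6, 86.1 and 99 TPM in 2TG against 133, 97 and 99.4 in 3TG, with 10 of 11 higher and a median difference of 0.30. Both sums overlapped between the genotypes, and both were highest in 3TG replicate 1. The 8 proliferation genes went the other way by sign, with 6 lower and a median of -0.07. Their sum was 251, 338 and 342 TPM in 2TG against 393, 321 and 187 in 3TG. Of 12 proneural and new neuron entries, which cover 11 gene symbols, 9 were higher, with a median of 0.32. None of the genes of these lists passed the adjusted threshold in limma. In RNA from whole embryos, fewer cells of a type and less RNA per cell cannot be told apart, and the part of these cell types in the Notch values was not tested.

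In the tardbp line, all 32 members tested were lower in 3TG by the sign of the fitted difference, which ran from -1.72 to 0.00. The 0.00 was her4.3, whose mean TPM was 1.8 in 2TG and 1.93 in 3TG. The Delta ligands dlb, dla and dld, the receptor notch3 and the effectors her13, hes6 and her12 were among the lowest. The whole table was shifted in that direction too: 83% of all genes were lower, and the median over all genes tested was -0.45. The members' median was -0.71, which is 0.26 below the shift. The groups did not overlap for 13 members, all lower, which is 40.6% where 29.1% of all genes were without overlap and lower (29.2% in either direction). They were dlb, dla, dld and jag2b among the ligands, notch2 and notch3 among the receptors, and her13, hey2, her8a, hes6, her12, her2 and her8.2 among the effectors.

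Setting each library's median to the same value removes that shift. After this centring 27 members were lower and 5 higher (51.2% of all genes lower), the members' median was -0.27, and 4 members did not overlap (dlb, her13, her2 and notch2), which is 12.5% beside 16% of all genes. The excess of non-overlapping members over the whole table was thus not present on the centred scale. By role, the uncentred medians were -1.07 for the Delta ligands, -0.54 for the Jagged ligands, -0.84 for the receptors and -0.67 for the effectors, and the centred medians in the same order were -0.63, -0.10, -0.40 and -0.23.

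A pair of libraries bears on nearly every value of this line, 1 of each genotype. The 2TG replicate 1 library held the highest value of the series for 16 of the 34 genes (47.1%, against 10.6% of all genes). The 3TG replicate 3 library, the one with the low total, held the lowest value for 16 (47.1%, against 59.7% of all genes). Without the 3TG library the members' median was -0.51 (-0.16 over all genes), and without the 2TG library it was -0.57 (-0.51). Without both, it was -0.33 (-0.22).

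**Figure D4:**
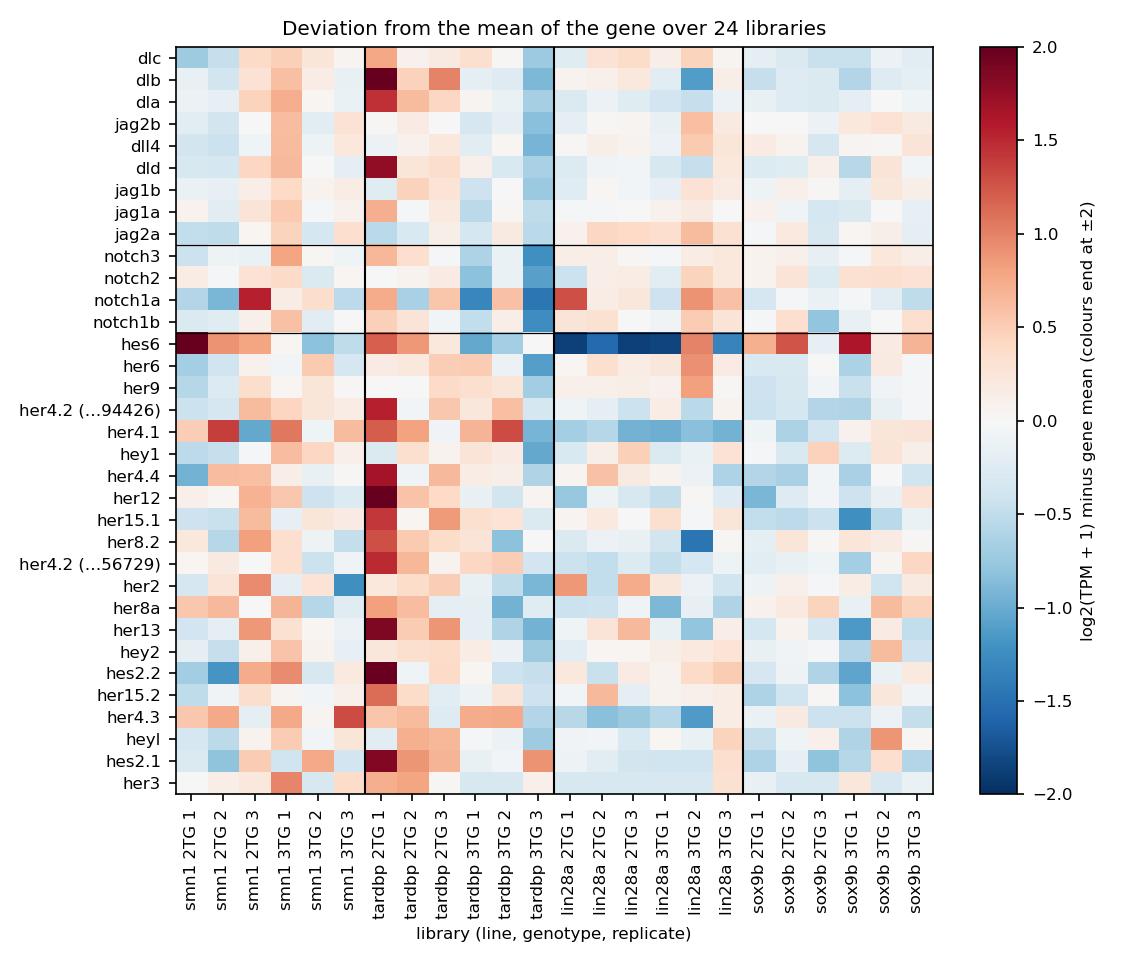
Level of each of the 34 genes in each library as log2(TPM + 1) minus the mean of that gene over 24 libraries, with genes in rows by role and libraries in columns by line and genotype; colours end at ±2. The tardbp 2TG replicate 1 column is high for most genes and the tardbp 3TG replicate 3 column is low for most.

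The ligand dlb had 67.6, 17.3 and 25.7 TPM in 2TG against 10.7, 10.2 and 6.16 in 3TG of the tardbp line. Every 3TG library lay below every 2TG library, and 2TG replicate 1 was the highest of the series. The means were 36.9 ± 26.9 and 9.05 ± 2.51 TPM and the difference was -1.72 (SE 0.477, adjusted p = 0.329 in limma), or -1.28 after centring. It was -0.95 without the 2 libraries named above, a change of more than 1.5 times. Without 2TG replicate 2, the only library of the line written with 6 decimals, dlb passed the threshold (-2.12, adjusted p = 0.0382 in limma) in a fit that called 0.636% of all genes. The SE in that fit was 0.577 for dlb and 0.553 to 0.589 over the members tested. It was thus nearly common to all of them and held little of dlb's own spread, so this call is not a result about dlb alone. dla had 28.5, 15.6 and 13.3 TPM in 2TG against 10.1, 8.8 and 5.74 in 3TG, again without overlap (-1.08, SE 0.427, adjusted p = 0.342 in limma; -0.64 centred). Without the same 2 libraries the dla difference was -0.56. dld, with 21.7, 6.89 and 7.45 against 6.12, 4.39 and 3.25 TPM, did not overlap before centring (-1.07) and overlapped after it (-0.63), and its difference was -0.40 without the 2 libraries. dlc, the ligand of highest mean over the 24 libraries, had 25.7, 15.5 and 16.6 TPM in 2TG against 18.5, 14.8 and 8.44 in 3TG. Its groups overlapped, and its difference of -0.47 became -0.03 after centring. The ligands dll4, jag2b and jag1b likewise went from -0.44, -0.52 and -0.54 to 0.00, -0.08 and -0.10. Whether dlc differs from dlb in its response was not tested.

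The receptor notch3 had 38.3, 30.5 and 23.2 TPM in 2TG against 15.3, 21.7 and 9.6 in 3TG, with no overlap (-0.98, SE 0.419, adjusted p = 0.351 in limma; -0.54 centred). notch2 had 19.4, 20.7 and 22.1 TPM in 2TG against 10.7, 17.8 and 8.7 in 3TG, with no overlap before or after centring (-0.75, SE 0.406, adjusted p = 0.387 in limma; -0.31 centred). For both receptors 3TG replicate 2 was the nearest to the 2TG group. Without the 2 libraries named above the notch3 difference was -0.52.

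Among the effectors her13 had 15.7, 5.51 and 7.4 TPM in 2TG against 3.02, 2 and 1.37 in 3TG. Again all 3TG libraries were the lower ones, and the means were 9.52 ± 5.41 and 2.13 ± 0.836 TPM (-1.67, SE 0.451, adjusted p = 0.329 in limma; -1.23 centred). Without the 2 libraries named above the her13 difference was -1.09, also a change of more than 1.5 times. hes6 had 237, 188 and 119 TPM in 2TG against 49.9, 63.8 and 102 in 3TG. Its 3TG library of low total was the highest of the 3, so the hes6 difference of -1.33 (SE 0.428, adjusted p = 0.335 in limma; -0.89 centred) was -1.61 without that library and -1.39 without both. her12 had 38.9, 11.9 and 10.5 TPM in 2TG against 6.84, 5.78 and 8.04 in 3TG (-1.21; -0.77 centred), and its difference was -0.74 without the 2 libraries.

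The tandem families overlapped in this line. The summed her4 level was 132, 58.3 and 58.3 TPM in 2TG against 60.4, 77.4 and 29.4 in 3TG, and the summed her15 level 27.9, 11.2 and 16 in 2TG against 11.7, 12.3 and 7.49 in 3TG. In both sums 2TG replicate 1 was the highest and 3TG replicate 3 the lowest. her6 and her9 overlapped as well, with centred differences of -0.08 and 0.27.

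Sharing 1 estimate of spread over all 24 libraries called 7 members in the tardbp line (dlb, her13, dla, notch3, her12, dld and notch2, with adjusted p from 0.0118 for dlb to 0.0461 for notch2), in a fit that called 17% of all genes. With median centring in the same fit no member was called, and dlb had an adjusted p of 0.216 in limma. Without centring, and with the library of low total left out, dlb had an adjusted p of 0.0507 in limma. That fit called 2.53% of all genes. With 2TG replicate 1 left out too, dlb was at -0.95 (adjusted p = 0.183 in limma), in a fit over 22 libraries that called 0% of all genes.

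Proliferation genes, neural progenitor genes and proneural genes were lower in the same 3TG libraries. The sum of 8 proliferation genes was 700, 379 and 407 TPM in 2TG against 299, 156 and 147 in 3TG of the tardbp line, with all 8 lower and a median difference of -1.54, or -1.10 centred. The sum of the 12 neural progenitor genes was 1570, 1130 and 1210 TPM in 2TG against 791, 589 and 456 in 3TG, with a median of -0.78, or -0.34 centred. The 12 proneural and new neuron entries, which cover 11 gene symbols, summed to 521, 379 and 472 TPM in 2TG against 267, 309 and 195 in 3TG. Their median was -0.82, or -0.38 centred. The presomitic mesoderm genes summed to 22.5, 18 and 20.6 TPM in 2TG against 13.9, 14.7 and 8.39 in 3TG. Each of these lists was at its highest for the line in 2TG replicate 1, the library in which many Notch genes were highest. The 11 endothelial and arterial genes summed to 80.7, 113 and 103 TPM in 2TG against 76.8, 85.4 and 45.8 in 3TG, which overlapped. Their median was -0.36, or 0.08 centred, with 6 higher and 5 lower after centring. None of the genes of these lists passed the adjusted threshold in limma, and their part in the Notch values was not tested.

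In the lin28a activation line the members were close to even, with 19 of 31 higher (43% of all genes higher), a median of 0.09 beside -0.05 for all genes, and medians of 0.11 for ligands, 0.03 for receptors and 0.09 for effectors. 1 member, hey2, had groups that did not overlap (3.23%, beside 6.56% of all genes in either direction and 2.5% in that one, and 7.58% after centring), with 2.33, 3.02 and 3.02 TPM in 2TG against 3.22, 3.48 and 3.7 in 3TG. Its difference was 0.24 (SE 0.225, adjusted p = 0.980 in limma), about the size of its SE.

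The Delta ligand dlb had 13.1, 13.3 and 14.5 TPM in 2TG against 10.5, 5.16 and 13.6 in 3TG of the lin28a line (-0.53, SE 0.323, adjusted p = 0.980 in limma). jag2b had 7.93, 9.42 and 9.58 TPM in 2TG against 8.24, 14.5 and 10.5 in 3TG (0.25), and dlc 12.2, 18.1 and 19.1 in 2TG against 16, 20.2 and 15.2 in 3TG (0.07). All 3 ligands overlapped between genotypes.

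Of the receptors, notch2 had 14.2, 21.5 and 21.9 TPM in 2TG against 16.7, 26.9 and 22.8 in 3TG (0.20), and notch3 had 26.4, 26.4 and 24.2 in 2TG against 23.5, 26.5 and 27.8 in 3TG (0.01). notch1a had 41.9, 18.5 and 19.7 TPM in 2TG against 12.2, 31.7 and 25.4 in 3TG (-0.20). The spread of notch1a within each genotype was larger than the difference between them.

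hes6 was at 27.2, 34.1 and 27.2 TPM in 2TG of the lin28a line, the lowest group of the series, and at 28, 205 and 39.8 in 3TG. The difference of 1.04 (SE 0.632, adjusted p = 0.980 in limma) rested on 3TG replicate 2 and was 0.18 without it. That library also held the highest her6 and her9 values of the series, at 47.5 and 44.2 TPM, and the lowest dlb value, at 5.16. Its proliferation sum was 180 TPM, where the other 5 libraries of the line had 373 to 440, and its neural progenitor sum of 575 TPM was the lowest of the line. Its hsp70l level was the highest of the line, as was its sum of the 10 presomitic mesoderm genes at 21.8 TPM. Of these 10 genes 6 had a median under 1 TPM, so that sum is no measure of the tissue. The part of these in its Notch values was not tested. her4.4 had 9.86, 14.8 and 10.9 TPM in 2TG against 10, 8.69 and 5.83 in 3TG (-0.50, SE 0.267, adjusted p = 0.980 in limma), while the her4 sum was 37.2, 41 and 33.8 in 2TG against 38.7, 30.4 and 36.2 in 3TG. her13 had 3.31, 4.42 and 6.15 TPM in 2TG against 3.09, 1.63 and 4.01 in 3TG (-0.54). Each of these overlapped between genotypes.

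**Figure D5:**
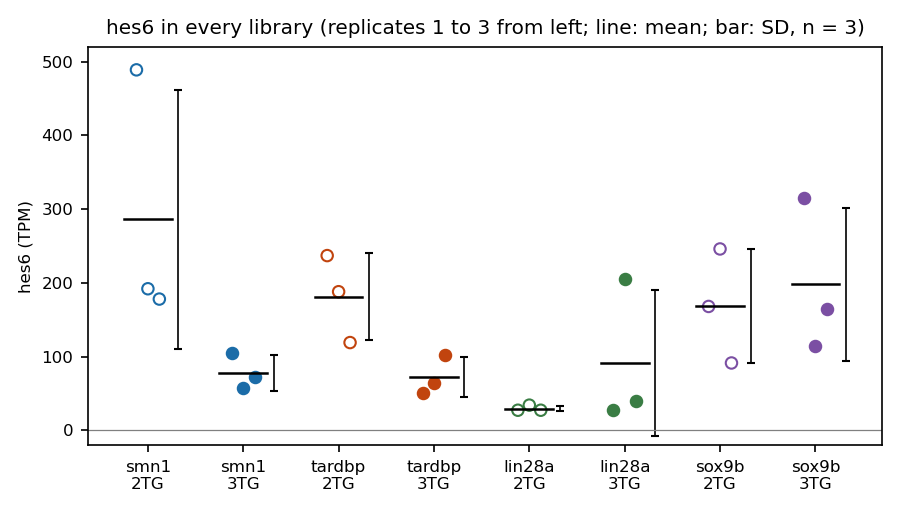
TPM of hes6 in every library by line and genotype, with points for replicates 1 to 3 from left to right, a line for the mean and a bar for the SD (n = 3). The smn1 and tardbp 3TG libraries lie below those of their 2TG siblings, and lin28a 3TG replicate 2 reaches 205 TPM where the other 5 libraries of that line are between 27.2 and 39.8.

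In the sox9b activation line 23 of 32 members were higher (66.9% of all genes higher) and the members' median of 0.07 equalled that of all genes. After centring 13 were higher and 19 lower, where 54.2% of all genes were lower. The groups did not overlap for 3 members, jag2b, notch2 and her4.1, all higher, which is 9.38% beside 4.75% of all genes in either direction and 3.6% in that one, and the same count was found after centring beside 4.93%. The largest of the 3 was her4.1, with 10.6, 6.97 and 8.47 TPM in 2TG against 12.1, 13.6 and 13.7 in 3TG. The means were 8.68 ± 1.82 and 13.1 ± 0.855 TPM (0.56, SE 0.179, adjusted p = 1 in limma). Since her4.1 is one of the near-identical copies, the sum is the safer value: the her4 sum was 35, 32.6 and 34.8 TPM in 2TG against 32.6, 45.4 and 46.2 in 3TG, and overlapped. The her4.1 share of that sum was 21.4% to 30.3% in 2TG and 29.6% to 37.3% in 3TG.

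jag2b had 9.22, 9.23 and 8.39 TPM in 2TG against 10.8, 11.5 and 10.5 in 3TG of the sox9b line, both groups being narrow (0.26, SE 0.143, adjusted p = 1 in limma). notch2 had 20.6, 23.5 and 16 TPM in 2TG against 24.5, 24.8 and 24.2 in 3TG (0.29, SE 0.161, adjusted p = 1 in limma). The 3TG libraries of notch2 lay close to each other, just above the highest 2TG library.

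The other named members overlapped in the sox9b line. dla had 8.7, 7.97 and 7.73 TPM in 2TG against 8.5, 9.62 and 9.13 in 3TG (0.14), and notch1b 9.3, 12.3 and 5.1 in 2TG against 8.54, 9.64 and 12.4 in 3TG (0.24). her12 had 3.64, 6.33 and 7.43 TPM in 2TG against 5.58, 6.89 and 9.64 in 3TG (0.32). The most abundant gene of each role also overlapped: dlc had 12.6, 11.7 and 10.4 TPM in 2TG against 10.4, 13.4 and 12.3 in 3TG (0.05), notch3 had 25, 25.7 and 21.1 in 2TG against 23.4, 27.9 and 26.3 in 3TG (0.11), and hes6 had 168, 246 and 91.3 in 2TG against 315, 115 and 164 in 3TG (0.22). The spread of hes6 within each sox9b genotype exceeded the difference between them.

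Across lines, no member had groups without overlap in 3 or more of the 4. her13, her2 and notch1a were lower in 3TG by sign in 4 of 4 lines. Of all genes, 83% were lower in the tardbp line, and 45.2%, 43% and 66.9% were higher in the smn1, lin28a and sox9b lines. The share of all genes lower in all 4 lines was not computed, so this count is a description only. For her13 the differences were -0.03 in the smn1 line, -1.67 in the tardbp line, -0.54 in the lin28a line and -0.28 in the sox9b line, and only in the tardbp line did the libraries separate. For her2 they were -0.67, -0.89, -0.47 and -0.02, and for notch1a -0.02, -0.94, -0.20 and -0.09, in the same order. After centring the differences of her13 and notch1a in the smn1 line were 0.00.

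The difference between lines in the effect of the guide was tested directly for the 6 pairs of lines, in 1 limma fit of all 24 libraries with 21099 genes. No member and no gene (0%) passed an adjusted p of 0.05 in any pair. At an unadjusted p under 0.05, 16 of 34 members were found between the smn1 and tardbp lines (10.6% of all genes). Between tardbp and lin28a (19.2%) and between tardbp and sox9b (20.8%) there were 10 of 34 each. Each of these counts includes her3, which was too low to be tested in any single line. The counts are uncentred and so contain the median shift of the tardbp line, -0.45 over all genes, and centred counts were not made. There were 1 between smn1 and lin28a (7.41%), 1 between smn1 and sox9b (3.37%) and 0 between lin28a and sox9b (0.991%). For notch3 the smn1 effect exceeded the tardbp effect by 1.45 (SE 0.368, adjusted p = 0.413), or 1.03 with centring. For hes6 the smn1 effect minus the lin28a effect was -2.79 (SE 0.783, adjusted p = 0.663), a value that contains the single high lin28a library. The pairs with tardbp share its 6 libraries and so are not independent of each other.

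The pathway outside the symbol rule was read from a list of 40 genes, of which 35 were found in the tables and all 35 were tested in each line. It holds ligand-side ubiquitin ligases, enzymes that process or glycosylate the receptor, the nuclear complex, and inhibitors and modulators of the pathway. None passed the adjusted threshold in any line. In the smn1 line 20 were higher and 15 lower with a median of 0.06, and 31.4% did not overlap between genotypes, beside 19.2% of all genes. Its classes differed in sign. Of the receptor processing genes 9 of 10 were lower, 5 of them without overlap (50%, where 11.2% of all genes lay below). After centring 3 of the 10 did not overlap (30%, beside 19.5% of all genes), and 1 was at an unadjusted p under 0.05 in limma. Their summed level was 284 to 311 TPM in 2TG and 229 to 279 in 3TG. By contrast, 5 of 6 genes of the nuclear complex and 8 of 9 inhibitors and modulators were higher (45.2% of all genes). In the nuclear complex 2 genes lay above and 1 below without overlap (50%, beside 19.2% of all genes). After centring 66.7% of that complex did not overlap, beside 19.5% of all genes, and 2 of 6 were at an unadjusted p under 0.05 in limma. For inhibitors and modulators the share was 11.1%, or 22.2% centred, and for the whole list 34.3% centred. Before centring, those at an unadjusted p under 0.05 were 3 of 35, or 8.57% beside 12.3% of all genes: lfng, a sugar transferase that tunes the receptor's response to ligands (0.63), adam17a, a metalloprotease (-0.54), and poglut1, which adds glucose to the receptor (-0.91). In the tardbp line 34 of 35 were lower, where 83% of all genes were lower. Their median was -0.61, which is 0.15 below that of all genes, and 8.57% were at an unadjusted p under 0.05, beside 13.7% of all genes. Among these aph1b, a component of γ-secretase, was at -0.93, and nrarpb, a feedback regulator of the pathway, at -0.94, both before centring. After centring 23 of the list were lower and 12 higher (51.2% of all genes lower), with a median of -0.17. On that scale 5.71% did not overlap, beside 16% of all genes, and 0 were at an unadjusted p under 0.05 in limma. In the lin28a line the median was 0.04 and 2 of 35 were at an unadjusted p under 0.05 (5.71%, beside 1.78% of all genes), with mib2, a ligase for Notch ligands, at 0.57 and nrarpb at -0.65. In the sox9b line 32 of 35 were higher (66.9% of all genes) with a median of 0.14 beside 0.07 for all genes, and none was under an unadjusted p of 0.05.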

How the data were processed

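The authors deposited TPM values per gene, 1 table for each of the 4 lines, per the file headers. For tools, the submitters' processing notes list STAR 2.7.10b, Salmon 1.10.1 and Trimmomatic 0.39, and for builds danRer11 and GRCz11, with no role or order. 13 unnamed columns were not used. Groups were taken from the sample descriptions, and the columns of the smn1 line were matched by sample title. Each line was fitted alone with limma 3.58.1 in R 4.3.3 on log2(TPM + 1), genes with TPM of 1 or more in 3 or more of its 6 libraries, a trended prior, two-sided p adjusted by Benjamini-Hochberg over all genes tested, threshold 0.05. TPM carry no counts, so no depth or counting interval is given. Named members are those past the threshold, the 2 of smallest p in each role and line, the most abundant of each role, and those without overlap in 3 or more lines. Others named were chosen after their values were seen. The members, lists and tests were chosen with earlier results of these data known. Scripts were tested on simulated data. The alternatives were other pseudocounts (0.1, 5), filters, scalings, priors, a replicate block, 1 fit over all libraries and each library left out. Leaving out doubted libraries together, combining centring with another choice and a number format term were chosen after seeing the data. The values of 1 gene of the wider pathway list are not reported here.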

Additional observations from a re-analysis of the deposited data

How the results depend on the processing

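The members' median difference kept its sign under every alternative in the smn1 and tardbp lines. It did not keep its sign in the smn1 line when each number format was read alone, which was not among these alternatives. There it was 0.59 with 6 decimals and -0.28 with 6 significant digits. With each library left out in turn the members' median ran from 0.08 to 0.39 in the smn1 line, from -0.82 to -0.51 in the tardbp line, from 0.02 to 0.14 in the lin28a line and from -0.03 to 0.19 in the sox9b line. In the lin28a line it was 0.14 with median centring, in its own fit or in 1 fit over 24 libraries. No member was called under any alternative in the smn1, lin28a or sox9b lines. In the tardbp line 7 were called in 1 fit over 24 libraries, and 0 to 1 with each library left out (1, dlb, at -2.12 and adjusted p = 0.0382 in limma without 2TG replicate 2). In that last fit the SE was nearly common to all members tested (0.553 to 0.589), so it held little of dlb's own spread. Same-numbered libraries of the 2 genotypes correlated between -0.338 and 0.376 in their deviations from the group means. This exceeded the correlation with other numbers for replicates 1 and 3 of the lin28a line and replicate 1 of the smn1 and sox9b lines. It did not for the remaining replicates, so whether the replicate numbers pair the libraries is not settled. A replicate block changed no member call and gave 28 called genes in the tardbp line. Genes called in the smn1 line, 0 as reported, were 5 with an untrended prior, 1 in the centred fit over 24 libraries and 0 to 2 with each library left out. Genes called in the tardbp line, 2 as reported, were 0 with a pseudocount of 0.1, no filter, centring (in its own or the 24-library fit), rescaling without the most abundant genes, or 1 fit over 22 libraries. They were 3293 and 486 in 1 fit over 24 and 23 libraries, 50 with centring and without 3TG replicate 3, 131 without that library and 2TG replicate 1, and 0 to 166 with each left out. The cause of these differences was not tested. Small differences changed sign. In the tardbp line dlc was 0.04 without both doubted libraries, in its own fit and in 1 fit over 22. In the lin28a line notch3 was -0.02 with rescaling, and with each library left out notch3 ran from -0.04 to 0.08, notch1a from -0.47 to 0.19 and dlc from -0.12 to 0.18. In the sox9b line dlc was -0.03 with centring, in its own fit or over 24 libraries, and with each library left out dlc ran from -0.03 to 0.14, notch1b from -0.08 to 0.48 and hes6 from -0.18 to 0.54. With only TPM, no value here can be weighed by depth.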

Other observations

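The presomitic mesoderm is where the segmentation clock runs earlier in development. Of 10 of its genes 6 had a median under 1 TPM, and mespaa, mespab, mespba, mespbb, ripply2 and msgn1 were listed at 0 in some library. The clock genes her1 and her7 did not reach the minimum for the members.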
